A study of Mus musculus with 48 samples.

Results

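The 12 lysate (input) libraries described here were the untreated starting material of an RNA immunoprecipitation study in mouse embryonic stem cells, 6 from untagged cells and 6 from cells carrying an HA tag on Tnrc6a, out of 48 libraries in the series. They were taken by their column names in the deposited count table, compared within each of 2 experiments (3 and 4) and averaged, and only autosomal genes are reported, 16690 of the 20171 genes in the table. The question was whether the tagged line differs from the untagged one in the levels of microRNA targets or of mRNA decay factors. The untagged cells were of strain 129S6/SvEvTac, carried the reporter GFP_5xT71BS and held a stably transfected FLAG-Cas9 construct linked to a blasticidin resistance. The tagged cells had the genotype GFP_5xT71BS with HA-AVI-Tnrc6a. One growth description, which includes the FLAG-Cas9 construct and medium with serum and LIF, is given for all libraries. Each line had 3 dishes per experiment. The number of clones behind each line is not stated, so the tag and other properties of the tagged line cannot be told apart. The p-values measure the spread between dishes.

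Tnrc6a, Tnrc6b and Tnrc6c encode the GW182 proteins. A GW182 protein binds an Argonaute protein loaded with a microRNA and recruits the CCR4-NOT and PAN2-PAN3 deadenylases, after which the message is decapped by Dcp2 and degraded from its 5′ end by Xrn1. An mRNA is recognised mainly through pairing with the seed of the microRNA, and in embryonic stem cells the most abundant microRNAs belong to the miR-290, miR-302 and miR-17 families. The let-7 family is kept low in these cells by Lin28a and Lin28b and becomes abundant on differentiation.

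The target lists below follow these families, so the mature sequences that define them are shown first. They come from RefSeq on GRCm38.p6 and run 5′ to 3′, and the capitals mark the seed, bases 2 to 8. The miR-290 and miR-302 members share the seed AAGUGCU, which 5 of the 1679 mature sequences in that table carry:
miR-291a-3p: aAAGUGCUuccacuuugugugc
miR-294-3p: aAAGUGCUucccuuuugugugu
miR-295-3p: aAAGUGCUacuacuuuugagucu
miR-302b-3p: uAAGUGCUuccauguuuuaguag
miR-302d-3p: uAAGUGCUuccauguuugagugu
In the miR-17 group the seed is the same string moved by one base, AAAGUGC, found in 7 mature sequences, so the families' targets were put in one list:
miR-17-5p: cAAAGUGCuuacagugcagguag
miR-20a-5p: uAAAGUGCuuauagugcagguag
miR-93-5p: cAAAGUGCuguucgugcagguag
miR-106b-5p: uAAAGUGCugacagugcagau
The let-7 seed is unrelated to these and was found in 11 mature sequences. The seed of miR-21 matters for Reck, Timp3 and Spry1 in the third target list:
let-7a-5p: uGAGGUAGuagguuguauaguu
let-7g-5p: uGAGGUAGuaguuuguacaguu
miR-21a-5p: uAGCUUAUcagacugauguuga
Target sites in the mRNAs were not analysed here. Membership of a target list is from textbook knowledge and not from a search for these seeds.

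Library totals lay between 15383953 and 19412035 counts in experiment 3 and between 26458831 and 34758102 in experiment 4. The first principal component of the autosomal log2 levels (47.7% of the variance) separated the experiments and the second (12.2%) separated the lines. A pair of libraries of experiment 3 stood apart from their own group. In untagged library 1, the 20% of genes with the shortest length in the table had a median log2 of 0.155 relative to the other untagged libraries, and the 20% with the longest had -0.131. In HA-Tnrc6a library 3, AY036118, which overlaps ribosomal RNA, stood at 8309 CPM against 334 and 690 CPM in the other libraries of its group. Counts of called genes without each of these libraries, and some single genes without untagged library 1, are given further on.

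Most genes had similar lysate levels in the lines. Of 16690 autosomal genes tested, 2725 (16.3%) differed at an edgeR quasi-likelihood adjusted p under 0.05, 1328 (7.96%) higher and 1397 (8.37%) lower in HA-Tnrc6a cells. Of those, 140 (0.839%) differed by at least 2-fold, 123 (0.737%) higher and 17 (0.102%) lower. Within experiment 3 the shares called were 3.85% higher and 3.62% lower, and within experiment 4 they were 6.2% and 7.36%. The 3 libraries of each line did not overlap in either experiment for 615 genes that were higher in tagged cells both times (3.68%) and for 719 that were lower (4.31%). For 13029 genes (78.1%) the whole 95% interval of the difference lay within 1.5-fold in either direction. The median log2 difference (HA-Tnrc6a minus untagged) was -0.0024, and the median standard error was 0.0702. Of the 2725 genes called, 2597 (95.3%) had the same sign in both experiments. The difference itself differed between the experiments for 612 genes (3.67%), 374 of them (2.24%) lower in experiment 4. Without untagged library 1 of experiment 3 that number was 962, and 3799 genes (22.4%) were called on average. Without HA-Tnrc6a library 3 of experiment 3, 2324 genes (13.7%) were called on average.

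The gene that carries the tag was slightly lower in the tagged line. In experiment 3 Tnrc6a (chromosome 7, 123031101 to 123195296) stood at 78.5, 85.9 and 86.5 CPM (the count scaled to the library's TMM-adjusted total) in the untagged libraries and at 73.3, 81.2 and 73.4 CPM in the HA-Tnrc6a libraries. In experiment 4 it stood at 99.5, 99.3 and 111 CPM in the untagged and at 97.5, 100.5 and 92.8 CPM in the tagged libraries. The lines overlapped in both experiments. The difference of -0.12 ± 0.04 (log2, SE, n = 3 per line and experiment) had an edgeR quasi-likelihood adjusted p of 0.0496, the weakest call among the decay factors. It no longer passed when any 1 of 8 of the 12 libraries was left out, with adjusted p values up to 0.176. The tag does not remove the gene, so its level checks only that the line still expresses it.

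The paralogs of Tnrc6a did not pass the test. Tnrc6b differed by -0.01 (95% interval inside 1.5-fold) and Tnrc6c by -0.08, with 115.8 ± 3.92 CPM in untagged and 107 ± 4.92 CPM in tagged cells of experiment 4 (SD, n = 3). None of the 4 Argonaute genes was called. Ago1 differed by -0.04 ± 0.04, Ago3 by 0.00 ± 0.08 and the barely expressed Ago4, at about 1 CPM, by -0.14 ± 0.27 (log2, SE). For Ago4 the 95% interval, -0.68 to 0.41, reaches past 1.5-fold.

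Ago2, the Argonaute able to cut its target, is the member whose result turned on a single library. It was at 176, 242 and 251 CPM in untagged and at 226, 231 and 226 CPM in tagged libraries of experiment 3. In experiment 4 the untagged libraries held 415, 367 and 376 CPM and the tagged ones 356, 354 and 332 CPM, all lower. The low value of 176 CPM belongs to untagged library 1, which stood apart by gene length. With all libraries the difference was -0.06 ± 0.08 (log2, SE, edgeR adjusted p = 0.661), and without that library it was -0.14 with an adjusted p of 5.57e-05.

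**Figure D1:**
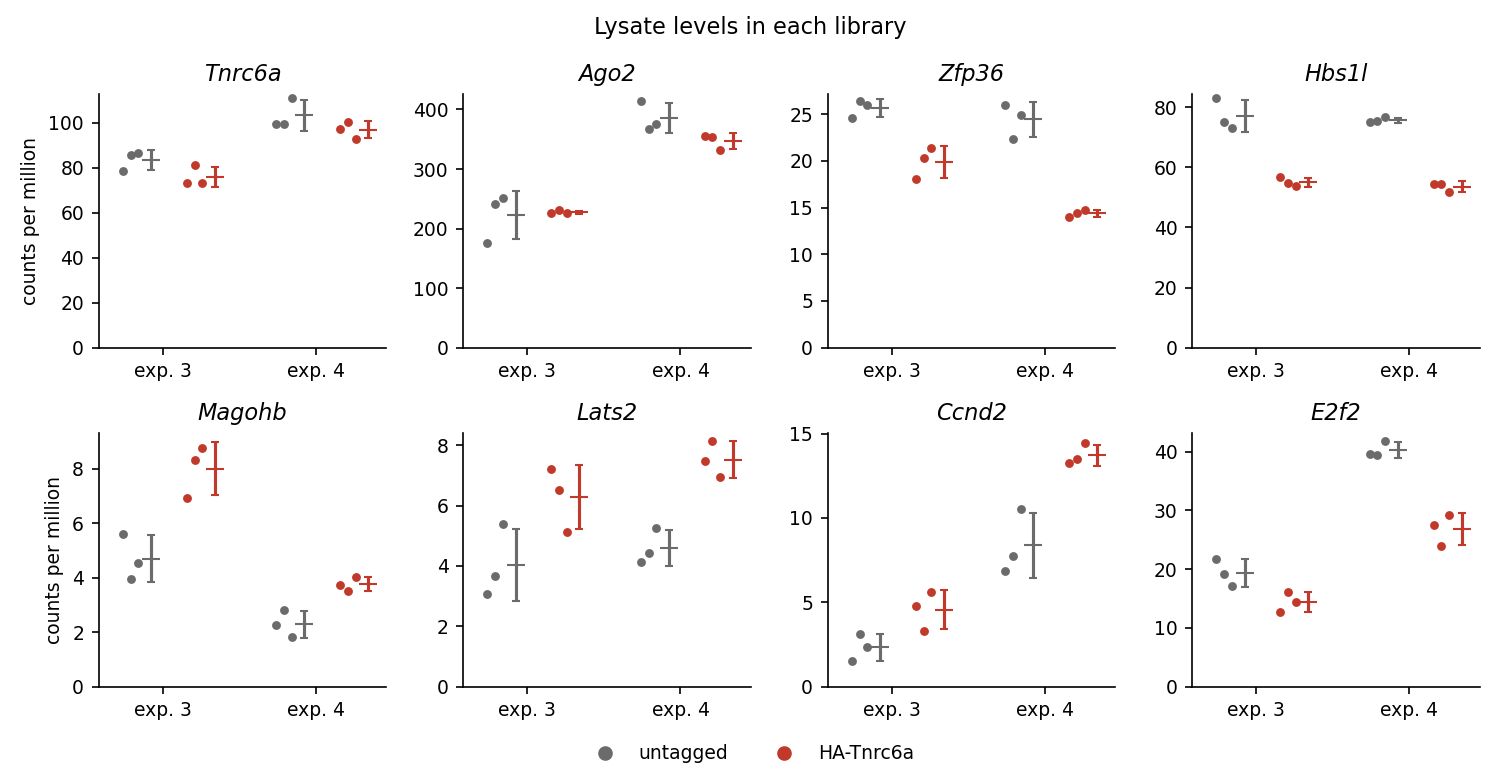
CPM in each lysate library for 8 genes, untagged in grey and HA-Tnrc6a in red, with mean and SD (n = 3) beside each group. Tnrc6a and Ago2 overlap between lines in experiment 3, while Hbs1l, Zfp36, Magohb, Ccnd2 and E2f2 are separated in both experiments.

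Decay and microRNA factors as a group showed small differences. Of 134 genes on the 9 lists, 132 were autosomal and tested, and 18 (13.6%) were called, 3 higher and 15 lower, beside 16.3% of all autosomal genes. None differed by 2-fold. The 95% interval lay within 1.5-fold for 128 of them (97%), and their median was -0.027. The share called depended on level. Among members with an average log2 CPM of 5 or more, 12 of 113 (10.6%) were called, beside 21.8% of all genes of that level. Between 2 and 5 it was 6 of 16 (37.5%), beside 17% of all genes. The split between directions moved with the scaling, from 3 higher and 15 lower to 5 higher and 10 lower when library totals were used. The number called moved with single libraries. It was 35 (6 higher, 29 lower) without untagged library 1 of experiment 3, which is 26.5% beside 22.4% of all genes in that fit, so the order against all genes turned. It was 10 (7.58%, beside 13.1%) without tagged library 1 of experiment 3 and 11 (8.33%, beside 13.7%) without tagged library 6 of experiment 4. Of the 18 calls, 9 held in all 12 fits that left out a library.

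In the microRNA biogenesis list 4 of 16 genes were lower and none higher, beside 8.37% and 7.96% of all autosomal genes. They were Ddx17 (-0.20 ± 0.04), a helicase of the Microprocessor complex, Dis3l2 (-0.17), the exonuclease that degrades uridylated let-7 precursors, Tut7 (-0.14), a terminal uridylyl transferase, and Lin28b (-0.25 ± 0.08). Lin28b showed this in experiment 3, with 10.8, 9.01 and 11.8 CPM in untagged and 7.56, 7.58 and 8.07 CPM in tagged libraries. In experiment 4 the lines overlapped for Lin28b. Dis3l2, Tut7 and Lin28b lost their call when some single libraries were left out, and Ddx17 kept it. Drosha, Dgcr8, Dicer1 and the other members did not pass.

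Rows for the stem cell microRNA clusters differed in depth. The short table rows of the miR-290 cluster, such as Mir291b and Mir294, held at most 4.71 CPM and none was called. They overlap the gene D7Ertd143e, which was not examined here. Mir17hg, the host of the miR-17 cluster, stood at 33.5 ± 0.782 CPM in tagged and 33.9 ± 1.62 CPM in untagged cells of experiment 3. In experiment 4 it was higher in tagged cells, 31.9 ± 0.295 against 24.6 ± 1.97 CPM (SD, n = 3), and the lines did not overlap. Its average difference was 0.18 ± 0.05 (edgeR adjusted p = 0.0126, and 0.0528 without untagged library 5 of experiment 4). Mature microRNAs were not measured.

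The CCR4-NOT complex, the main deadenylase of the pathway, was nearly flat. Of 12 subunits 1 (8.33%) was called, Cnot4, at 0.12 ± 0.04, beside 16.3% of all autosomal genes. All 12 intervals lay within 1.5-fold. Cnot4 lost its call without any 1 of 9 libraries. Among poly(A)-binding proteins, PAN2-PAN3 and the Tob and Btg adaptors, which bring CCR4-NOT to mRNAs, 2 of 16 (12.5%) were called, both lower. Of all autosomal genes 8.37% were called lower. Tob1 was at 41.2, 45.4 and 47.5 CPM in untagged against 41.5, 41.6 and 38.2 CPM in tagged libraries of experiment 3. Experiment 4 had 70.8, 68.1 and 63.9 against 45.3, 47.2 and 43.7 CPM, a separation seen in that experiment alone. Btg2 changed sides, higher in all tagged libraries of experiment 3 (36.8 to 39.8 against 34.8 to 36.3 CPM) and lower in all of experiment 4 (33.5 to 37 against 47.7 to 48 CPM). For Tob1 and Btg2 the difference between experiments passed the test, with edgeR adjusted p values of 0.00667 and 2.53e-04.

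In the decapping and 5′ to 3′ decay list 1 of 24 genes (4.17%) was called, beside 16.3% of all autosomal genes. It was Gigyf1, a partner of the cap-binding repressor 4EHP, at -0.13 ± 0.04, and its call was lost without any 1 of 5 libraries. All 24 intervals lay within 1.5-fold, Dcp2 and Xrn1 included. The exosome list had 2 of 20 (10%) called, both lower, beside 8.37% of all autosomal genes called lower. They were Dis3l (-0.18 ± 0.05), the cytoplasmic exosome nuclease, and Hbs1l (-0.49 ± 0.04). For Dis3l the lines were separated in experiment 3 alone, and its call was lost without any 1 of 4 libraries. Hbs1l rescues stalled ribosomes and in a short isoform links the exosome to the Ski complex.

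Hbs1l was the decay gene with the lowest adjusted p. It was at 83, 75.1 and 73.2 CPM in untagged and 56.7, 54.8 and 53.7 CPM in tagged libraries of experiment 3. In experiment 4 the values were 75, 75.6 and 76.6 CPM against 54.6, 54.6 and 51.6 CPM. The lines did not overlap in either experiment and the difference was of one size in both (edgeR adjusted p = 2.48e-10). Its position (chromosome 10, 21295979 to 21368889) lies in a stretch of neighbouring genes that were lower together, described further on.

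Nonsense-mediated decay degrades mRNAs with premature stop codons, and 4 of 20 of its genes (20%) were called, near the 16.3% of all autosomal genes. Dhx34 (-0.26), a helicase that acts with Smg1, Upf3a (-0.19) and the central helicase Upf1 (-0.11) were lower. For Upf3a the lines were separated in experiment 3 alone. Upf1 stood at 90.9 ± 5.11 CPM in untagged and 85.4 ± 5.45 CPM in tagged cells of experiment 3, and at 118 ± 2.03 and 108 ± 1.79 CPM in experiment 4 (SD, n = 3). Its adjusted p of 0.0469 did not hold without any 1 of 8 libraries, and Upf1 overlaps Cers1 and Gdf1. Magohb, an exon junction protein gene nearly identical to Magoh, was higher at 0.75 ± 0.12, with 5.62, 3.94 and 4.53 CPM in untagged and 6.9, 8.33 and 8.75 CPM in tagged libraries of experiment 3. In experiment 4 it had 2.25, 2.8 and 1.82 against 3.74, 3.51 and 4.03 CPM. Reads shared with Magoh, which differed by 0.08 and was not called, make this value uncertain.

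Among 17 adaptors that bring decay factors to particular mRNAs, Zfp36 and Fxr2 were lower and Trim71 higher. That is 17.6% called, near the 16.3% of all autosomal genes. Zfp36 (tristetraprolin) binds AU-rich elements and recruits CCR4-NOT. It was at 24.6, 26.4 and 26 CPM in untagged and 18, 20.3 and 21.4 CPM in tagged libraries of experiment 3, and at 26, 22.4 and 25 against 14, 14.4 and 14.7 CPM in experiment 4. The lines were separated in both experiments, and the difference of -0.56 ± 0.06 was the largest decrease on the decay lists (edgeR adjusted p = 6.82e-08). Trim71, itself a let-7 target and an RNA-binding repressor, differed by 0.10 ± 0.03, and its call was lost without any 1 of 8 libraries.

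**Figure D2:**
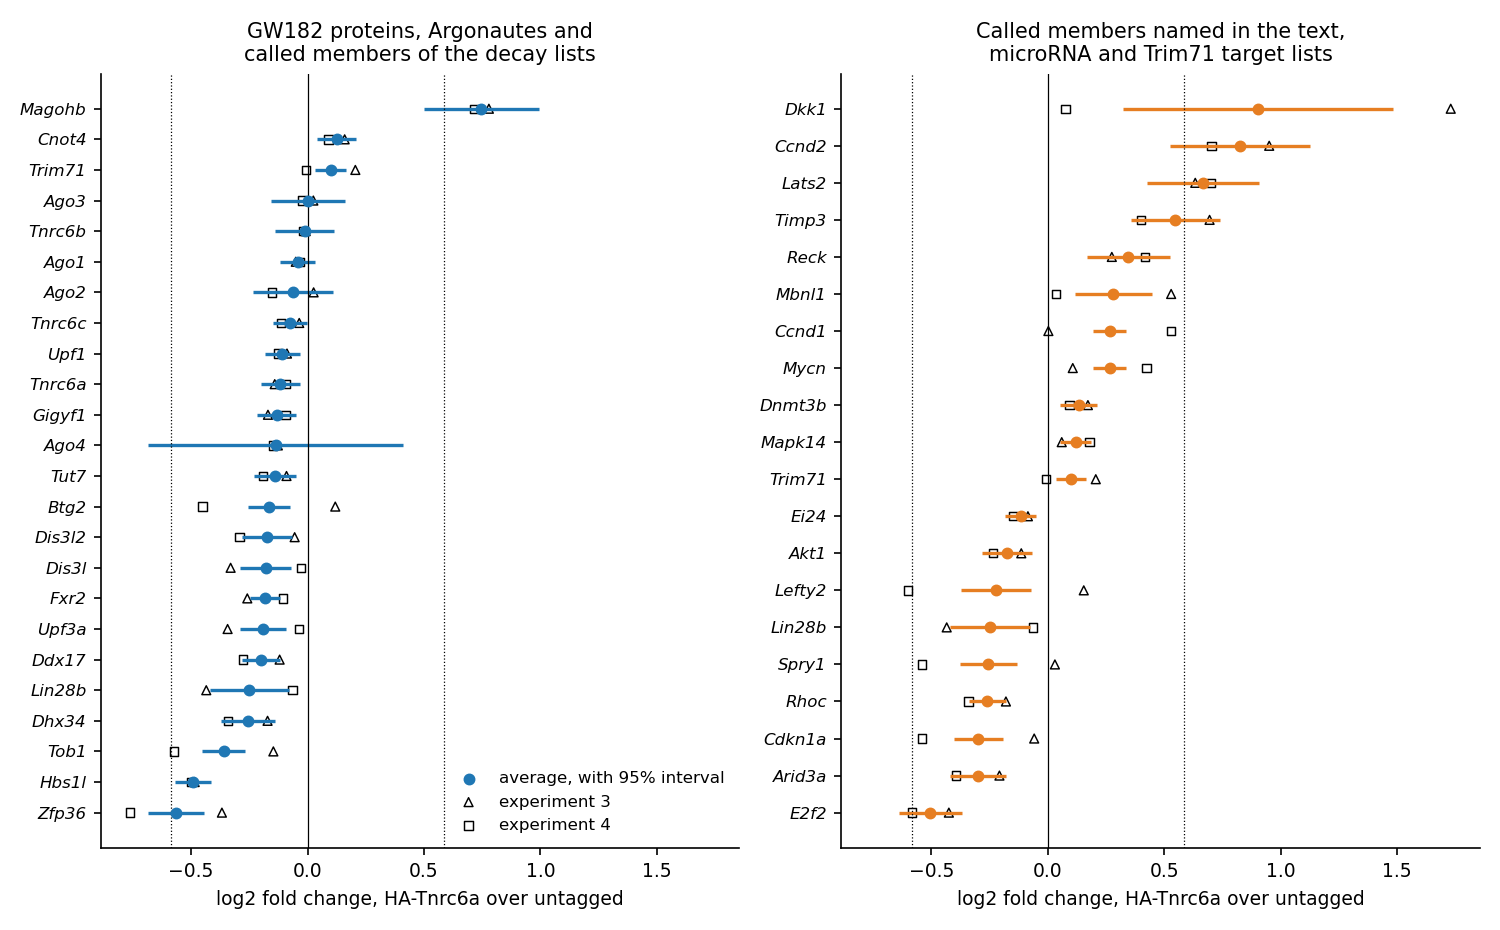
Log2 fold change of HA-Tnrc6a over untagged lysates, averaged over both experiments with its 95% interval (filled circle and line), and the values of experiments 3 (triangles) and 4 (squares). The dotted lines mark 1.5-fold, and on the left the intervals of Magohb, Zfp36 and Ago4 reach past it, as do those of Dkk1, Ccnd2, Lats2, Timp3 and E2f2 on the right.

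The listed targets of microRNAs and of Trim71 were called more often than the listed decay factors, in both directions. These lists were chosen with earlier results of these data known, so the shares are given as a description. Of 66 genes on 3 lists 64 were autosomal and tested, and 21 (32.8%) were called, 11 higher and 10 lower, beside 16.3% of all autosomal genes. Their median log2 difference was -0.005 and none reached 2-fold. The interval lay within 1.5-fold for 57 (89.1%). The share called depended on level. Among targets with an average log2 CPM of 5 or more, 10 of 40 (25%) were called, beside 21.8% of all genes of that level. Between 2 and 5 it was 10 of 20, beside 17% of all genes. Of the 21 calls, 13 held in all 12 fits without a library.

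On the list for miR-290, miR-302 and miR-17, 2 of 22 targets were higher and 6 lower, beside 7.96% and 8.37% of all genes, with a median of -0.005. Lats2, a Hippo pathway kinase and a known target of these microRNAs, was at 3.08, 3.67 and 5.37 CPM in untagged and 7.2, 6.53 and 5.12 CPM in tagged libraries of experiment 3. The values of experiment 4 were 4.12, 4.41 and 5.26 CPM against 7.48, 8.16 and 6.94 CPM. The lines overlapped in experiment 3 through 1 library on each side and were separated in experiment 4, and the difference was 0.67 ± 0.12 (edgeR adjusted p = 1.89e-04). The table holds another row for Lats2, so reads may be split between them.

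Dkk1, a secreted Wnt inhibitor, had the largest difference on the target lists, 0.90 ± 0.28, with the lines separated in experiment 3 alone. There it was at 0.268, 0.27 and 0.259 CPM in untagged and 0.72, 1.18 and 0.791 CPM in tagged libraries, while experiment 4 had 0.862, 0.567 and 0.954 against 0.759, 0.917 and 0.835 CPM. At these few counts its call was lost without any 1 of 5 libraries. The TGF-beta receptor gene Tgfbr2 had 1.24 in experiment 3 and -0.40 in experiment 4 (log2), and was not called on average (edgeR adjusted p = 0.152). The difference between experiments passed the test for Tgfbr2 and not for Dkk1.

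The lower members included cell cycle genes. E2f2, which drives entry into S phase, was at 21.8, 19.1 and 17.2 CPM in untagged and 12.7, 16.1 and 14.4 CPM in tagged libraries of experiment 3, and at 39.6, 39.4 and 41.8 against 27.5, 23.9 and 29.2 CPM in experiment 4. The lines did not overlap in either experiment (-0.51 ± 0.07, edgeR adjusted p = 3.05e-06). Cdkn1a (p21), the cyclin kinase inhibitor that miR-290 family members are known to repress, overlapped between lines in experiment 3. In experiment 4 it was lower in tagged cells, at 30.4, 32.8 and 32.8 against 46.5, 50.2 and 42.8 CPM. Rhoc, a small GTPase, was lower in both experiments, with 43.3, 46.2 and 42.7 against 49.6, 52.1 and 47.9 CPM in the first of them. Akt1 (-0.18), Ei24 (-0.12) and Lefty2 (-0.22) overlapped between lines in experiment 3 and were separated in experiment 4, and each lost its call without some library.

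On the let-7 list 4 of 27 targets were higher and 3 lower, beside the same 7.96% and 8.37%, with a median of -0.002. Ccnd2 (cyclin D2) was the largest, at 0.83 ± 0.14. It was at 1.54, 3.13 and 2.33 CPM in untagged and 4.8, 3.29 and 5.59 CPM in tagged libraries of experiment 3, and at 6.86, 7.75 and 10.5 against 13.2, 13.5 and 14.4 CPM in experiment 4. Tagged cells were above all untagged ones both times (edgeR adjusted p = 3.5e-04). Ccnd1 (cyclin D1) was level in experiment 3, with 79 ± 3.43 and 78.9 ± 2.47 CPM, and higher in experiment 4, with 142 ± 0.802 against 98.5 ± 2.85 CPM (SD, n = 3). Mycn followed the same order, 145 ± 5.66 against 135 ± 6.08 CPM and then 123 ± 3.19 against 91.8 ± 2.52 CPM. For Ccnd1 and Mycn the difference between experiments passed the test. Arid3a (-0.30) and Lin28b were among the lower ones.

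The third list, of targets of other microRNAs and of Trim71, had 5 of 15 higher and 1 lower, where 7.96% and 8.37% of all genes were called. Timp3, an inhibitor of matrix metalloproteinases whose gene overlaps Syn3, was at 5.08, 7.23 and 6.09 CPM in untagged and 10, 10 and 9.97 CPM in tagged libraries of experiment 3, with 5.4, 4.56 and 4.57 against 6.43, 6.75 and 5.93 CPM in experiment 4. Reck, another protease inhibitor, was higher by 0.35 ± 0.09, Mbnl1, a splicing factor, by 0.28 ± 0.08, Dnmt3b by 0.13 and Mapk14 by 0.12. The lines were separated for Mbnl1 and Dnmt3b in experiment 3 alone and for Reck in experiment 4 alone. Mbnl1 and Dnmt3b lost their calls when some single libraries were left out. Spry1, an inhibitor of receptor tyrosine kinase signalling and like Reck and Timp3 a known miR-21 target, was level in experiment 3 and lower in experiment 4 (0.03 and -0.54). The called miR-21 targets named here therefore lay on both sides, Spry1 through experiment 4 alone. Other members of this list, such as Pdcd4 and Spry2, were not called.

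**Figure D3:**
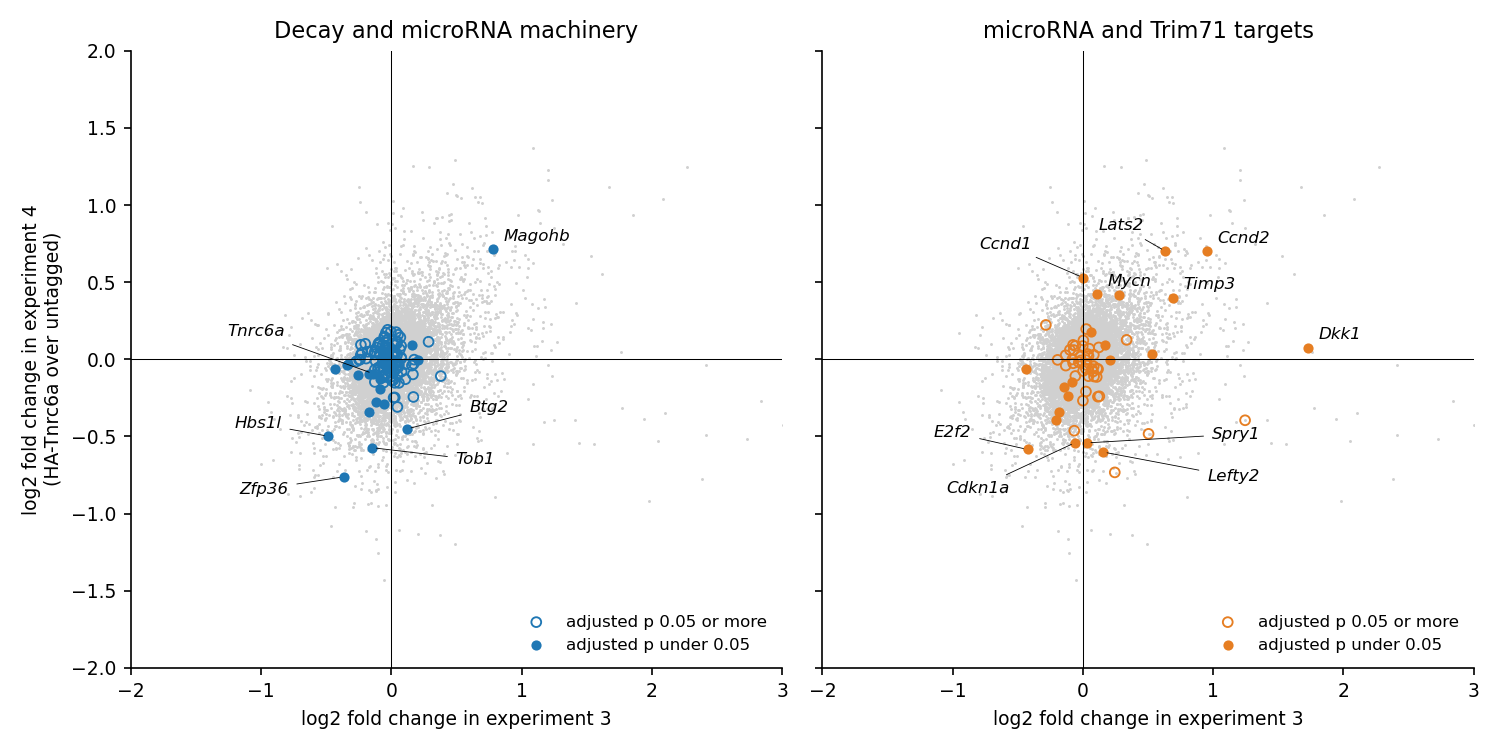
Log2 fold change of HA-Tnrc6a over untagged lysates in experiment 3 (horizontal) and experiment 4 (vertical), with genes of an average log2 CPM of at least 1 in grey (1 gene lies outside the axes), decay factors in blue and targets in orange, filled where the average was called. Most decay factors lie near 0, with Magohb, Zfp36, Hbs1l, Tob1 and Btg2 further out, and several targets, such as Ccnd1, Lefty2 and Dkk1, lie along one axis.

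Lists made from the study's own libraries were also described, each made in one experiment and read in the other, so that no library entered both. Genes recovered with HA-Tnrc6a (immunoprecipitate over input in the line labelled Upf1 knockout less that in untagged cells, at least 2-fold with an edgeR adjusted p under 0.05) numbered 2621 and 2556 of the tested genes. Their median log2 difference between tagged and untagged lysates was -0.024 in experiment 4 and 0.026 in experiment 3. In experiment 4, fitted alone, 236 were higher and 416 lower (24.9% called, beside 23.2% of all genes). In experiment 3, fitted alone, 53 were higher and 25 lower (3.05% beside 3.55%). The interval lay within 1.5-fold for 80% and 74.7% of them.

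Genes that were higher in Ago2 knockout lysates than in both HA-Tnrc6a and untagged lysates (log2 at least 0.5 and adjusted p under 0.05 in each) are the next list. Their median difference between tagged and untagged cells was 0.227 over 227 genes in experiment 4 and 0.22 over 333 genes in experiment 3, beside 0.001 and -0.004 over all genes. In experiment 4, 91 were higher and 11 lower, where 11% and 12.2% of all genes were called in those directions. In experiment 3, 46 were higher and 1 lower, where the shares were 2.22% and 1.33%. The Ago2 knockout line carries the tag too, and the criterion against untagged lysates uses the same lines as the comparison, so the list favours genes that are higher in tagged lines. When the list was made against HA-Tnrc6a lysates alone, the medians were 0.195 and 0.188. Made against lysates labelled Upf1 knockout, a line that also carries the tag, they were 0.147 over 1249 genes and 0.105 over 1482 genes. These further definitions were added after the first result was seen.

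Level moved with this result. Among genes under an average log2 CPM of 2, all autosomal genes had medians of 0.046 and 0.085 in experiments 4 and 3, and the Ago2-sensitive ones 0.42 and 0.363. At 5 or more the medians were -0.004 and -0.03 for all genes and 0.188 and 0.105 for the 44 and 37 Ago2-sensitive genes. For genes chosen against the label Upf1 knockout, the medians at that level were 0.11 and 0.009. Genes that were both recovered and Ago2-sensitive, 77 and 98 of them, had medians of 0.142 and 0.143.

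A pair of stretches of chromosome 10 were dense in genes that were lower in the tagged line, although they held only 39 of the 1397 genes called lower. The genome was divided into 5 Mb windows, and of 416 windows with at least 8 genes, 4 had a median below -0.25 in both experiments and none above 0.25. All 4 lay on chromosome 10 (GRCm38), between 15000001 and 25000000 and between 65000001 and 75000000. The medians of the other windows ran from -0.103 to 0.186. These windows were looked for and chosen after the data had been seen, so their values are given as a description.

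In the first stretch 22 of 32 genes were called lower and 1 higher, Platr6, with a median of -0.413 in experiment 3 and -0.333 in experiment 4. In the second, 17 of 23 were lower and 1 higher, Zwint, with medians of -0.512 and -0.36. Over the remaining 585 genes of the chromosome 64 (10.9%) were lower, near the 8.37% of all autosomal genes. Within the first stretch the lower genes began with Cited2 (-0.16) and Heca (-0.42) and ended with Med23 (-0.37), with some members between them not called, and Epb41l2 (-0.36) lay just beyond its end. Inside were Map7 (-0.56), Hbs1l, Sgk1 (-0.30), a kinase regulated by serum and glucocorticoids, and Rps12 (-0.51), a ribosomal protein gene. In the second they ran from Reep3 (-0.30) to Ipmk (-0.45), an inositol phosphate kinase gene, and Gm4798, the next one, was at 0.05.

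Single genes show how close the values were. Cdk1, the kinase that drives mitosis, was at 169, 180 and 161 CPM in untagged and 119, 113 and 116 CPM in tagged libraries of experiment 3, and at 140, 146 and 141 against 107, 110 and 113 CPM in experiment 4. Tfam, which packages and transcribes mitochondrial DNA, was at 90.6, 80.7 and 76.1 against 57, 57 and 54.6 CPM and then at 70.2, 72.8 and 69.1 against 56.2, 57.2 and 56.6 CPM. Neither gene overlapped between lines in either experiment.

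The knockout lines, which also carry the tag, were measured in the same way. Relative to untagged lysates and to the rest of the chromosome, the mean log2 level of the first stretch in experiment 3 was -0.382 ± 0.0076 in HA-Tnrc6a, -0.286 ± 0.0076 in Ago2 knockout and -0.488 ± 0.0239 in lysates labelled Upf1 knockout. In experiment 4 the order was the same, -0.215 ± 0.0216, -0.1 ± 0.0524 and -0.358 ± 0.0445 (SD, n = 3 each). The second stretch gave -0.413, -0.326 and -0.514 in experiment 3 and -0.331, -0.217 and -0.445 in experiment 4. The lysates of the tagged lines all lay below every untagged lysate of their experiment in both stretches. These values share the untagged lysates.

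**Figure D4:**
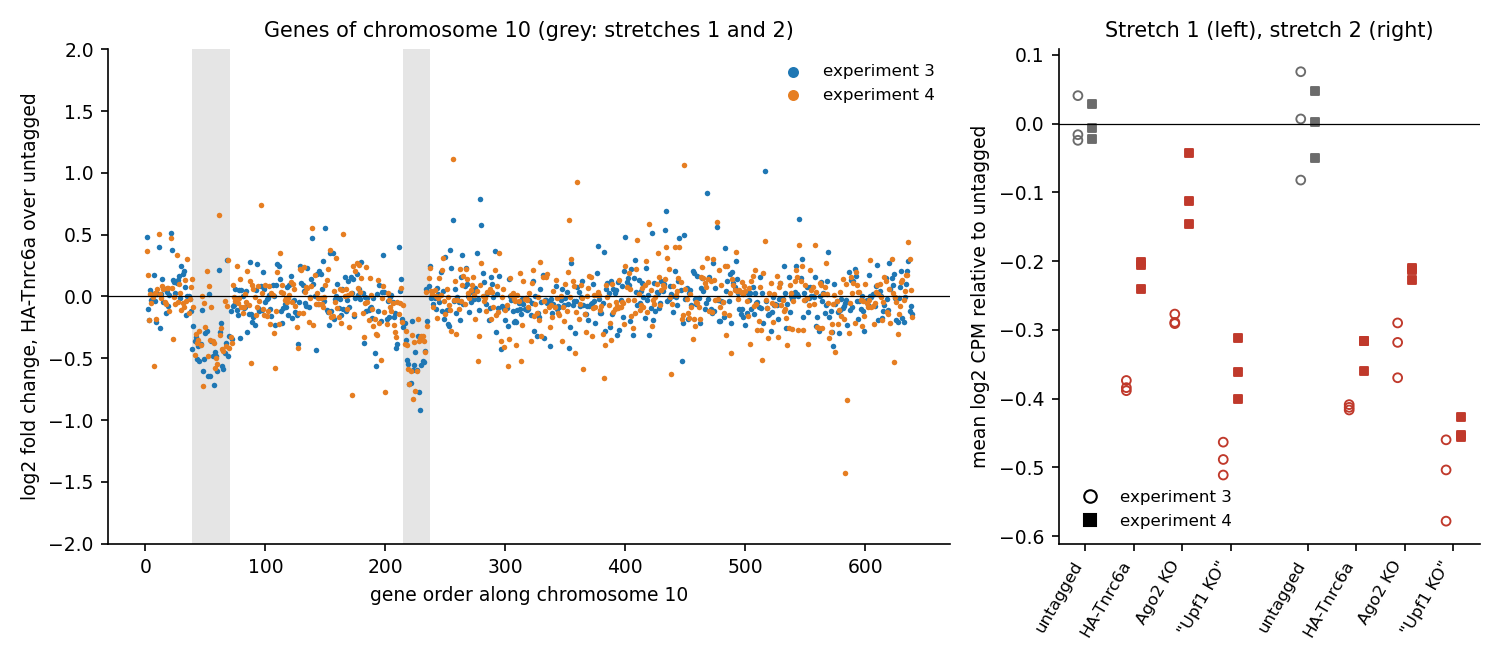
Left, log2 fold change of HA-Tnrc6a over untagged lysates for each gene of chromosome 10 in gene order, for both experiments, with the stretches shaded. Right, mean log2 CPM of each stretch less the rest of the chromosome, relative to the untagged mean, for every lysate of the 4 genotypes, where all tagged lines lie below 0.

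Outside the lists, the genes named are the 10 largest differences per direction that were called, had 1 sign across the experiments and reached 1 in average log2 CPM. Zfp264, a zinc finger gene, was the highest, with 2.27, 1.4 and 2.78 CPM in untagged and 10.3, 9.94 and 10.4 CPM in tagged libraries of experiment 3, and 1.91, 1.37 and 2.52 against 4.21, 5.11 and 4.55 CPM in experiment 4. Its average difference was 1.76 ± 0.14. The bicarbonate transporter gene Slc4a5 was at 7.16, 8.85 and 8.94 against 16.8, 19 and 17.3 CPM and then at 5.1, 4.8 and 5.21 against 13.3, 12.3 and 13.5 CPM. Pax8, a developmental transcription factor, had 1.21, and the collagen receptor Ddr2 and collagen gene Col26a1 had 1.39 and 1.18. The others were 4921525O09Rik (1.56), Slfn9 (1.39), the testis cytochrome c gene Cyct (1.13), Aff3 (1.10) and the phospholipase gene Pla2g4a (1.08). Each was below 20 CPM in every library, and the lines were separated in both experiments for all 10.

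At the low end Tab1, an activator of the kinase Tak1, was at 20.7, 20.4 and 22.4 CPM in untagged and 10.6, 13.3 and 12.7 CPM in tagged libraries of experiment 3, with 30.4, 26 and 28.3 against 16.2, 14.3 and 15.7 CPM in experiment 4. Fignl2 was at 21.5, 22.6 and 24.2 against 12.1, 11.4 and 12.8 CPM and at 37.8, 38 and 41.9 against 25.4, 25.2 and 24.3 CPM. Neither overlapped between lines. Tagln (-0.84), an actin-binding protein gene of smooth muscle, Espn (-0.79), Pde4c (-0.77), Cdh22 (-0.74) and the homeobox gene Cdx1 (-0.69) were lower in both experiments. Ndufa4l2 (-0.74) was lower in experiment 4 alone. Zfp365 (-0.71) and Rhobtb1 (-0.71) lie in the second stretch of chromosome 10.

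Both lines expressed the pluripotency genes. Pou5f1 stood at 1671 ± 16 CPM in tagged and 1850 ± 193.1 CPM in untagged cells of experiment 3, and at 1750 ± 2.91 and 1689 ± 66 CPM in experiment 4 (SD, n = 3), and did not pass. Of 22 naive markers 7 were higher and 2 lower, all by less than 1.5-fold, beside 7.96% and 8.37% of all genes. Nanog was higher by 0.21 ± 0.03, with 693 to 724 against 617 to 637 CPM in experiment 3 and 784 to 790 against 650 to 668 CPM in experiment 4. Klf2, Zfp42, Sox2, Prdm14, Dppa2 and Fbxo15 were higher by 0.14 to 0.25, and Tfcp2l1 and Dppa4 lower by 0.17 and 0.12. Of 8 primed or epiblast markers 3 were higher and none lower. Among fibroblast markers 2 of 7 were lower, and among neural markers 1 of 6, with none higher on either list. The mesoderm, trophoblast and 2-cell-like lists had no member called, with 7, 7 and 3 members tested. On the mesoderm and 2-cell-like lists no interval lay within 1.5-fold.

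Primitive endoderm markers were higher in the tagged line in experiment 3, where 12 of 14 were called higher, beside 3.85% of all autosomal genes. They were not higher as a group in experiment 4. There Lamb1 was higher and Col4a1 and Col4a2 lower, beside 6.2% and 7.36% of all autosomal genes. On average 9 were called higher and none lower, beside 7.96% and 8.37% of all autosomal genes, with a median of 1.135 in experiment 3 and -0.133 in experiment 4. Dab2, an endocytic adaptor of this lineage, was at 3.54, 4.21 and 3.3 CPM in untagged and 19.6, 19.6 and 20.1 CPM in tagged libraries of experiment 3. Experiment 4 had 12.5, 11.3 and 12.1 against 12.7, 10.6 and 11.6 CPM. Cubn (cubilin) had 2.1 ± 0.42 against 14.9 ± 1.56 CPM and then 8.6 ± 0.76 against 7.17 ± 0.992 CPM. Col4a1, a basement membrane collagen, had 32.9 ± 0.619 against 112 ± 1.55 CPM and then 117 ± 4.23 against 94.1 ± 6.5 CPM, so its order turned round. Among the defining transcription factors Sox17 was called on average (0.59), while Gata6 (0.14), Gata4 (0.19) and Sox7 (0.38) were not. In experiments 3 and 4 the log2 differences were 1.10 and 0.08 for Sox17, 1.17 and -0.41 for Sox7, and 0.61 and -0.23 for Gata4. Foxa2, also on the list, had 2.11 and -0.42 and was not called on average. The difference between experiments passed the test for each of them and not for Gata6. In the 23 alternative fits Sox7 was called in 7, Gata4 in 1 and Gata6 in 0, and Sox17 lost its call in 1. None of Sox17, Sox7, Gata4 and Gata6 was at 0 in a group. In bulk lysates, more cells of a type and more RNA per cell cannot be told apart. The part of this shift in the target differences of experiment 3, such as Dkk1 and Tgfbr2, was not tested.

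Genes activated by p53 were lower, mostly in experiment 4. Of 17 tested 12 were lower and none higher, beside 8.37% and 7.96% of all genes, with a median of -0.068 in experiment 3 and -0.405 in experiment 4. Cdkn1a, described above as a microRNA target, is on this list, as is Btg2. Ccng1 was at 166 and 171 CPM (means of tagged and untagged) in experiment 3 and at 190 and 264 CPM in experiment 4. Pmaip1 (-0.31) and Bbc3 (-0.43), which encode pro-apoptotic BH3 proteins, were separated in both experiments. Mdm2 (-0.25), which encodes the ubiquitin ligase of p53, was separated in experiment 4. Perp (-0.66) lies in the first stretch of chromosome 10.

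Genes of glycolysis and the hypoxia response were lower too, 13 of 21 and none higher, beside the 8.37% of all genes called lower. The glycolytic enzymes Aldoa (-0.22), Tpi1 (-0.23) and Gapdh (-0.12) were lower in both experiments. The HIF targets Bnip3, Ndrg1, Egln3 and Ddit4 were lower in experiment 4 alone. Bnip3 was at 225, 262 and 242 against 232, 230 and 235 CPM in experiment 3, and at 43.2, 46.8 and 60.4 against 34.5, 30.6 and 32.2 CPM in experiment 4, so both lines held less of it in experiment 4. Egln3, an oxygen-sensing prolyl hydroxylase, was higher in tagged cells of experiment 3 (66.6 ± 3.52 against 55.8 ± 2.47 CPM) and lower in those of experiment 4 (23.4 ± 2.95 against 38.9 ± 4.52 CPM).

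Of 40 imprinted genes 12 were called higher and 4 lower, beside 7.96% and 8.37% of all genes. H19, a maternally expressed RNA, was at 6.69, 8.1 and 6.86 CPM in untagged and 17.7, 12.6 and 16 CPM in tagged libraries of experiment 3, and at 1.65, 2.03 and 2.78 against 3.91, 2.78 and 3.37 CPM in experiment 4. Mest was at 20.6 ± 0.825 against 33.1 ± 0.758 CPM and then 28.9 ± 3.05 against 50.1 ± 0.687 CPM. Meg3 (0.22), Rian (0.27) and Mirg (0.44), which belong to one maternally expressed cluster, were higher, and Grb10 (-0.17) was lower. Igf2 was lower in experiment 3 and not in experiment 4 (-0.95 and 0.17).

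Called members were also found on further lists, where the shares of all genes were again 7.96% higher and 8.37% lower. Of 20 DNA methylation and germline genes 7 were higher and 2 lower, with Dnmt3l at 0.42 ± 0.03 and Dazl at 0.72 ± 0.05, and Sycp3 and Ddx4 lower. Of 16 FGF-ERK feedback genes 6 were lower, such as Dusp6 (-0.33) and Etv4 (-0.24), and 2 higher, Ccnd1 and Egr1 (0.60 ± 0.07). Of 18 cholesterol synthesis genes 7 were higher, with Sqle at 0.23, and none lower.

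**Figure D5:**
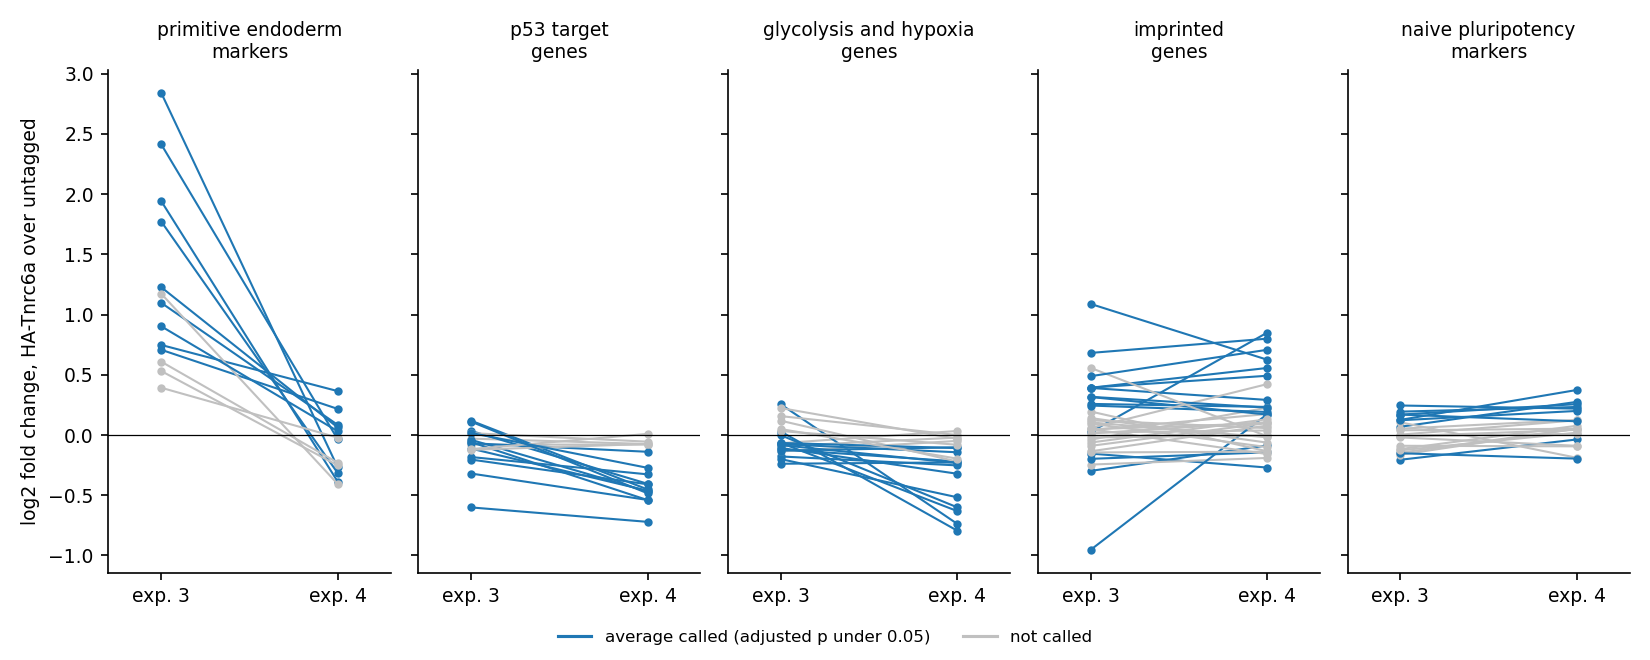
Log2 fold change of HA-Tnrc6a over untagged lysates in experiments 3 and 4 for the members of 5 lists with an average log2 CPM of at least 1, 1 line per gene, blue where the average was called. Endoderm markers lie as high as 2.84 (Cubn) in experiment 3 and on both sides of 0 in experiment 4, p53 targets are lower in experiment 4, and naive pluripotency markers stay near 0.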

How the data were processed

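RNA of 12 lysates was sequenced with a stranded total RNA kit, per the labels' protocols. The submitters' processing notes name bcl2fastq 2.20, STAR 2.7.3a and GRCm38 (mm10), while the strand setting of the counting and its annotation are not given in the sources used here, so overlapping genes are uncertain. The deposited raw counts per gene, not normalized by the authors, were used, and the table's 48 columns of scaled values were not. The deposited gene length, in bases, served only to describe libraries. Columns 1 to 3 were taken as experiment 3 and columns 4 to 6 as experiment 4, which is inferred from the labels. Names and chromosomes came from the table and RefSeq (GRCm38.p6), and 2213 genes without a chromosome were left out.

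Counts were fitted with edgeR 4.0.16 (R 4.3.3, TMM, filterByExpr with a minimum count of 10, robust quasi-likelihood F-test, two-sided), with 1 coefficient per line and experiment. The whole table (19407 genes tested) was fitted and adjusted by Benjamini-Hochberg. CPM use TMM-scaled totals and not gene length, so they do not compare genes with each other. Intervals cover 95%. Genes were named as called list members, members completing a family, or the 10 largest per direction. Members and lists were chosen with earlier results of these data known. The script was tested on simulated data. Alternatives included DESeq2, other scalings, filters, single experiments and leaving out each library. Some called list members are counted but not reported here by name.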

Additional observations from a re-analysis of the deposited data

Results flagged for a closer look

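The difference between the lines itself differed between experiments 3 and 4 for 36 of the 128 genes named or considered above (edgeR quasi-likelihood test of experiment 4 minus experiment 3, adjusted p under 0.05). In 30 of them it was lower in experiment 4 and in 6 higher, and 16 had opposite signs. Values are the log2 difference in experiment 4 less that in experiment 3.

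The largest shifts were those of the primitive endoderm markers Cubn -3.11, Foxa2 -2.53, Dab2 -2.45, Col4a2 -2.33 and Col4a1 -2.09. Further markers of that list had Sox7 -1.58, Lama1 -1.16, Sox17 -1.01, Sparc -0.87, Gata4 -0.84 and Lamb1 -0.49. Among target genes Tgfbr2 had -1.64, Lefty2 -0.75, Spry1 -0.57 and Cdkn1a -0.48, while Mycn had 0.32 and Ccnd1 0.53. Among decay adaptors Btg2 had -0.57 and Tob1 -0.43, and the microRNA host Mir17hg had 0.39.

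Among hypoxia and glycolysis genes Egln3 was at -0.99, Ddit4 at -0.82, Ndrg1 at -0.60, Bnip3 at -0.57 and Hk1 at -0.32. The p53 targets Trp53inp1, Ccng1 and Phlda3 had -0.59, -0.43 and -0.35. The remaining ones were Ndufa4l2 (-1.38), Zfp264 (-1.02), Aff3 (-0.86), Dazl (-0.72), Dnmt3l (-0.30), Ddx4 (0.41), Egr1 (0.56) and Igf2 (1.12).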

How the results depend on the processing

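For tagged against untagged lysates, the count of called genes, 2725, lay between 2132 and 3799 when each library was left out. It was 553 in experiment 3 alone, 3850 in experiment 4 alone and 140 with a 2-fold minimum. For the difference between experiments, 612 genes became 288 to 962 without a library, 951 with all 24 inputs in one fit, 1054 without both libraries that stand apart and 89 with a 2-fold minimum. The 18 decay factors became 10 to 35 without a library, 6 in experiment 3 alone (4.55%, beside 3.55% of all genes), 37 in experiment 4 alone (28%, beside 23.2%), 33 without both libraries that stand apart (25%, beside 21.8%) and 0 with a 2-fold minimum. In those 3 fits the share was above that of all genes, against 13.6% beside 16.3% on average. The 21 targets became 15 to 26 without a library and 0 with a 2-fold minimum. In experiment 3 alone 6 were called (9.38%, beside 3.55% of all genes), and in experiment 4 alone 27 (42.2%, beside 23.2%). The 26 were called without untagged library 1 of experiment 3 (40%, beside 22.4%). The 15 were called without tagged library 5 of experiment 4 (23.4%, beside 12.8%). Without HA-Tnrc6a library 3 of experiment 3, 14 decay factors (10.6%) and 18 targets (27.7%) were called, beside 13.7% of all genes. Single experiments hold fewer samples, yet experiment 4 alone called more genes than both experiments together. The cause of these changes was not tested.

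Averages changed sign in single experiments. In experiment 3 alone the log2 difference was 0.1222 for Btg2, 0.0318 for Ddit4, 0.2576 for Egln3, 0.1564 for Lefty2, -0.0142 for Mir17hg, 0.0016 for Ndrg1, 0.0333 for Spry1 and 0.1142 for Trp53inp1. In experiment 4 alone it was -0.316 for Col4a1, -0.386 for Col4a2, -0.269 for Cubn, -0.0338 for Dab2, 0.1744 for Igf2 and -0.0065 for Trim71.

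Same-numbered libraries shared only a number (correlations of their deviations 0.0091 to 0.0302 over 6 pairs). With a replicate block 3061 genes (18.3%) were called for tagged against untagged lysates and 851 for the difference between experiments. In that fit 26 decay factors (19.7%) and 22 targets (34.4%) were called, so the decay factor share was again above that of all genes. DESeq2 called 2729 genes. The scaling by the deposited scaled columns was not run, since those columns were not used. Depth limits Ago4, Dkk1 and the microRNA rows, all at a few CPM or less.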
